A study of Mus musculus with 14 samples.

Results

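The lysosome is the acidic compartment in which cells break down proteins, glycans and lipids, and 31 genes for its soluble enzymes, lipid-handling proteins and membrane proteins are described here in mouse embryonic blood. The genes were chosen by name, but with earlier results of these data known. Of the 31, 30 had a probe set under their symbol among the 18194 genes with a probe set on the array, while Cd63 had none and was not analysed here. Where a gene had several probe sets, the brightest on average over the 14 arrays stands for it. A gene was tested when at least 3 of the 14 arrays reached a log2 value of 6, and 20 of the 31 lysosomal genes passed, among 7393 genes tested in all. The study asked how the fusion gene Cbfb-MYH11 acts on embryonic blood cells compared with loss of Cbfb, the subunit of core binding factor that does not itself bind DNA and pairs with Runx proteins, which do.

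The blood came from E12.5 embryos, and each RNA was a pool of 8 to 10 embryos of 1 genotype. Embryos with the fusion allele (Cbfb+/MYH11, 4 arrays) and their wild-type littermates (WT, 4 arrays) came from Cbfb-MYH11 chimeras mated to C57/Bl6 females. Embryos without Cbfb (Cbfb-/-, 3 arrays) and their wild-type littermates (Cbfb+/+, 3 arrays) came from matings between Cbfb+/- mice. Both wild-type groups carry the same Cbfb genotype and differ in cross. Chimeras hold cells of more than a single origin, but their offspring carry the fusion allele in all cells. The titles number the arrays within a group as technical replicates, and nothing says that they came from separate pools, so p-values measure only the spread between these arrays. Values are log2 intensities as deposited, and differences of log2 values are given as log2 changes. A gene was called when limma's adjusted p (Benjamini-Hochberg over all 7393 genes) was under 0.05 with a change of 1.5-fold or more, and "rose" and "fell" are used for such genes alone.

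Lysosomal hydrolases are made in the endoplasmic reticulum, tagged with mannose 6-phosphate in the Golgi and carried by mannose 6-phosphate receptors to endosomes, where the vacuolar proton pump supplies the acid they need. The limiting membrane is lined by heavily glycosylated proteins such as Lamp1 and Lamp2 and holds transporters and channels. Many of these genes share a promoter element, with the core CACGTG, that is bound by TFEB, TFE3 and MITF. Phagocytic macrophages are rich in lysosomes, and in the embryo they clear dying cells and expelled red cell nuclei. Red cells, in contrast, lose their lysosomes as they mature.

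The arrays of the first cross fell into pairs. Over all tested genes the SD of the log2 difference between 2 arrays of a group ranged from 0.11 to 0.71, and the 4 highest values were those between WT array 1 or 2 and WT array 3 or 4. Of 11 red cell markers with a probe set, 10 were at or above a log2 value of 6 on every array. Cbfb itself lay between 6.80 and 7.03 in Cbfb-/- and between 6.27 and 6.56 in Cbfb+/+ (log2 change 0.48, limma adjusted p = 0.453). Where that probe set lies relative to the deleted part of the gene is not given in the sources used here, so it does not check the genotype labels. Over all tested genes the median change was 0.26 in Cbfb+/MYH11 and 0.13 in Cbfb-/-. With quantile normalization these medians became -0.02 and -0.04, and the share of called genes that were higher went from 84.4% to 55.6% in Cbfb+/MYH11 and from 74.6% to 52.7% in Cbfb-/-. Changes of lysosomal genes are therefore also given relative to the median of all genes.

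Promoter sequences were taken from RefSeq (build GRCm38.p6) as windows of 270 bases, from 250 before to 20 after a start site. Of the 31 genes 26 matched, with 29 windows. Ctsc, Hexa, Lgmn, Scarb2 and Man2b1 are shown because they were called in at least 1 mutant comparison. Ctsa and Lamp1 were added after the motif counts were seen, because Lamp1 holds the most copies of CACGTG and Ctsa the most of TCACGTGA. Capitals mark the motifs that were searched on both strands: CACGTG, its extension TCACGTGA, which contains it, the still longer CLEAR consensus, which contains both, the Runx motif TGTGGT and the PU.1 motif GAGGAAGT. The windows are, in order, at chr2:164833523-164833792 (plus strand), chr8:13158911-13159180 (plus), chr7:88277835-88278104 (plus), chr12:102439709-102439978 (minus), chr12:102439073-102439342 (minus), chr9:59539290-59539559 (plus), chr8:85083019-85083288 (plus) and chr5:92505638-92505907 (minus).
Ctsa: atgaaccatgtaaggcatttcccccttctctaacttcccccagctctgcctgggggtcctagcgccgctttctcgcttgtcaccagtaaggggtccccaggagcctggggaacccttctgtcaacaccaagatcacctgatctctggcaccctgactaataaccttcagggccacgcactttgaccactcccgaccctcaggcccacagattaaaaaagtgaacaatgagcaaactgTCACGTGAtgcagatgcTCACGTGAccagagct
Lamp1: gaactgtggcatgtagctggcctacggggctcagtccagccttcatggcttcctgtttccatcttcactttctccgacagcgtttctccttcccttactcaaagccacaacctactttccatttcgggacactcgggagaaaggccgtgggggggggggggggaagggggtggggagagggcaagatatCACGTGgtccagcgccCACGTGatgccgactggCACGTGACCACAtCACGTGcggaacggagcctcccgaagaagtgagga
Ctsc: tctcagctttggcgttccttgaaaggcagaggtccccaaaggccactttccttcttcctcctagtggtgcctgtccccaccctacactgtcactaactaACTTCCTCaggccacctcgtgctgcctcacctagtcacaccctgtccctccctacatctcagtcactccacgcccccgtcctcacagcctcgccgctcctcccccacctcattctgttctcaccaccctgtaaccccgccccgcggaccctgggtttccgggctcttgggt
Lgmn, upstream start: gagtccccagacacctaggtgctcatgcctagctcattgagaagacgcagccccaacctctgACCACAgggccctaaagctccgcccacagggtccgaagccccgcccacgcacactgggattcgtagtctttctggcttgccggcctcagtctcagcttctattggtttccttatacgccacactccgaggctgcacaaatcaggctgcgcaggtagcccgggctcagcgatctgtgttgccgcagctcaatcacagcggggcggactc
Lgmn, downstream start: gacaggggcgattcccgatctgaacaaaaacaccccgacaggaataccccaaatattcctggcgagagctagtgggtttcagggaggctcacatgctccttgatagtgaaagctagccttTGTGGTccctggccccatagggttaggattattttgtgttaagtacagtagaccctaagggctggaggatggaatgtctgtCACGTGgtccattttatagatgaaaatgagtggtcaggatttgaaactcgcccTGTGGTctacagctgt
Hexa: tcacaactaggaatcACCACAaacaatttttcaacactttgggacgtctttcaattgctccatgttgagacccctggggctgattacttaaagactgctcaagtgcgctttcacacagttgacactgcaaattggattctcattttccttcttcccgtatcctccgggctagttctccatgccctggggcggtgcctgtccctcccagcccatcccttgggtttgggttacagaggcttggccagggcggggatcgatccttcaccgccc
Man2b1: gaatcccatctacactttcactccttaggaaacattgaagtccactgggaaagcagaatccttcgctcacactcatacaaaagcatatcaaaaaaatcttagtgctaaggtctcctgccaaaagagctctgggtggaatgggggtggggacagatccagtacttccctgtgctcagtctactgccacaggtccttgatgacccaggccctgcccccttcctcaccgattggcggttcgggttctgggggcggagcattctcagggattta
Scarb2: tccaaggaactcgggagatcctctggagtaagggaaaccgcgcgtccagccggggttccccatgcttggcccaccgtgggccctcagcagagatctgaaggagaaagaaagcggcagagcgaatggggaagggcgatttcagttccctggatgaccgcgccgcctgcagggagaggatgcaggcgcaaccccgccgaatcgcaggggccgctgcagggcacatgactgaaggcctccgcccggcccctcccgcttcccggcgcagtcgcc
CACGTG occurred in 9 of the 29 windows (31.0%), against 6.57% of all 32851 promoter windows of that length. The 9 belong to Ctsa, Ctsd, Ctsl, Lgmn, Glb1, Gaa, Naglu, Lamp1 and Mcoln1. Lamp1 holds 4 copies, the nearest 15 bases before its start. The Ctsa window shown holds 2 copies of TCACGTGA, 1 of them 13 bases before its start. Ctsa also has another window, upstream and not shown, with 0 copies of CACGTG and 1 of TGTGGT. TCACGTGA was found in 3 windows (10.3%, against 0.904% of all), the CLEAR consensus in 0 (0.310% of all), TGTGGT in 7 (24.1%, against 15.1%) and GAGGAAGT in 1 (3.45%, against 2.72%), that of Ctsc. Of 18 windows of macrophage marker genes, 0 held CACGTG. Among the 5 genes called in a mutant comparison, the only one with CACGTG in a window was Lgmn, in its downstream window, and Man2b1 and Scarb2 held none of the motifs. The median GC content was 55.2% in these windows and 52.6% in all.

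In Cbfb+/MYH11 blood, 4 of the 20 tested lysosomal genes fell and 1 rose. The fallen genes were the proteases Ctsc and Lgmn, the glycosidase Hexa and the membrane protein Scarb2, and the gene that rose was the glycosidase Man2b1. Over all tested genes 5.63% fell and 30.5% rose, 36.1% in all. The median change of the 20 was -0.12, against 0.26 for all tested genes, and 15 of the 20 lay below the median of all tested genes. Without the filter the medians lay closer, at -0.20 for 30 lysosomal genes and -0.11 for all 18194 genes, so the gap depends on the filter. With quantile normalization 6 of the 20 fell, with Ctsl and Gaa added, and 0 rose, against 14.1% and 17.7% of all genes under that setting, and their median was -0.44, against -0.02. In Cbfb-/- blood 1 of the 20 rose, Scarb2, and 1 fell, Man2b1, against 19.5% and 6.65% of all tested genes (26.2% together). Their median there was -0.17, against 0.13, and 17 of the 20 lay below the median of all tested genes. Without the filter these medians were -0.10 for 30 lysosomal genes and -0.05 for all genes. With quantile normalization 5 fell, with Ctsa, Ctsd, Hexa and Tpp1 added, against 12.2% of all genes under that setting, and the median was -0.31. No lysosomal gene was called in the same direction in both mutants, where 10.4% of all genes rose in both and 1.95% fell in both, and 15 of the 20 were called in neither. Man2b1 and Scarb2 were called in both, in opposite directions. With quantile normalization Hexa fell in both mutants.

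**Figure D1:**
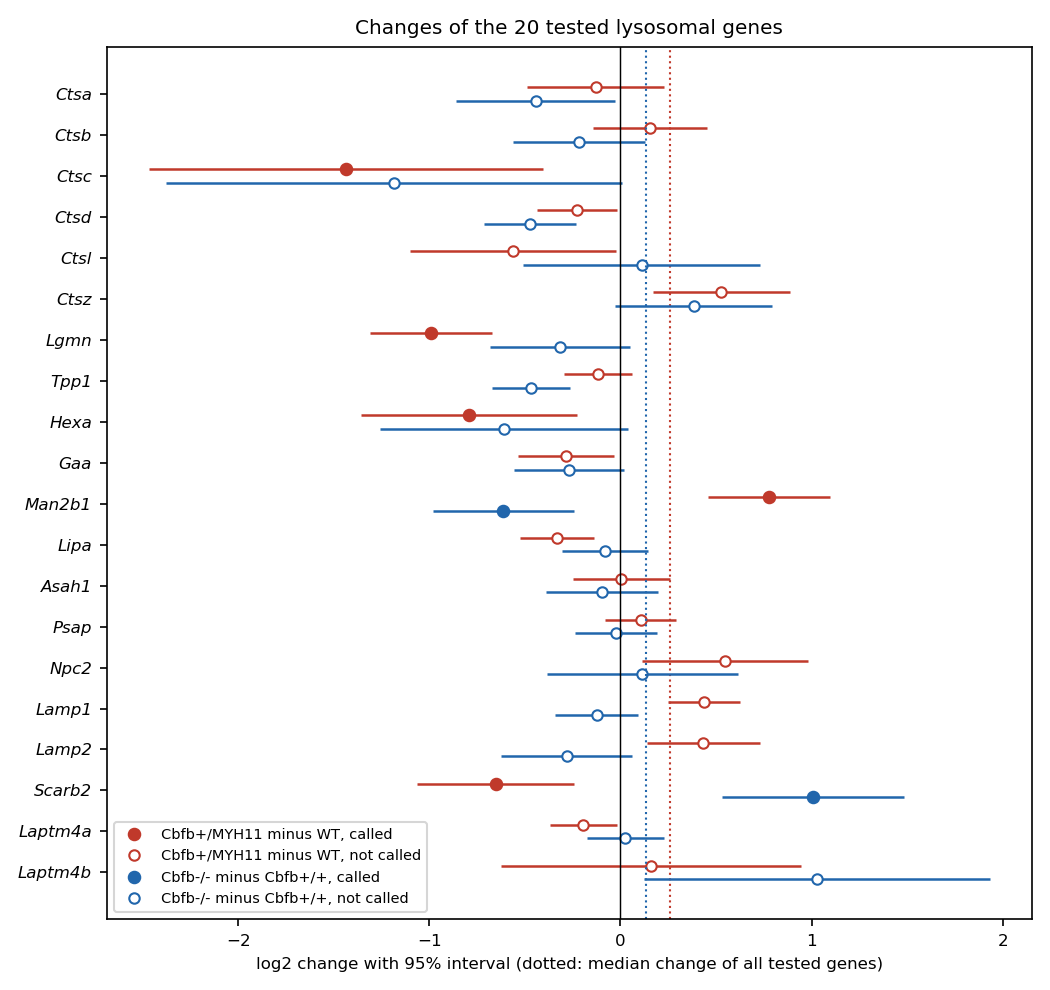
Log2 change of each of the 20 tested lysosomal genes (rows) with its 95% interval from limma, in Cbfb+/MYH11 minus WT (red) and Cbfb-/- minus Cbfb+/+ (blue); filled points were called, and dotted lines mark the median change of all tested genes (0.26 and 0.13). Man2b1 and Scarb2 are filled on opposite sides of 0, and most other points lie left of the dotted lines.

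Among the cysteine proteases, Ctsc showed the widest spread of all members between arrays. Ctsc encodes dipeptidyl peptidase I, which activates the granule serine proteases of white cells. Its log2 values were 7.94, 8.01, 5.58 and 5.61 on the WT arrays and 5.44, 5.38, 5.22 and 5.35 in Cbfb+/MYH11. The WT arrays thus split into a high and a low pair, and even the low pair lay above every Cbfb+/MYH11 array. Ctsc fell by 1.44 on the log2 scale (2.7-fold, limma adjusted p = 0.0194, 95% interval -2.47 to -0.40). All 4 Cbfb+/MYH11 arrays and the lower WT arrays were under 6, where a probe set may show mostly background, so the size of the fold is not well measured. Ctsc passed the filter only through WT arrays 1 and 2 and the 3 Cbfb+/+ arrays. In the second cross it measured 5.82, 5.85 and 5.60 in Cbfb-/- and 6.99, 6.80 and 7.03 in Cbfb+/+. These groups did not overlap, but the change of -1.19 was not called (adjusted p = 0.0955, limma with the spread shared by all 14 arrays). With only the arrays of the second cross fitted, this change was called. Without WT array 1 or without WT array 2 the fall in Cbfb+/MYH11 was no longer called (log2 change -1.05 and -1.03, adjusted p = 0.0621 and 0.0612).

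Lgmn was the only lysosomal gene called within both array pairs of the first cross, where it fell. Of all genes 3.58% fell and 20.8% rose within both pairs. It encodes legumain, an asparaginyl endopeptidase that also processes other cathepsins. Its values were 9.09, 9.21, 8.48 and 8.51 in WT and 7.81, 7.96, 7.75 and 7.82 in Cbfb+/MYH11. Every Cbfb+/MYH11 array lay below every WT array, and Lgmn fell by 0.99 (1.99-fold, limma adjusted p = 0.000106). In the second cross it lay at 7.37, 7.36 and 7.40 in Cbfb-/- and at 7.68, 7.63 and 7.76 in Cbfb+/+. All Cbfb-/- arrays were below their littermates, but the change of -0.31 was not called (adjusted p = 0.143). The 3 Cbfb+/+ arrays were themselves at or below the level of the Cbfb+/MYH11 arrays. Cbfb+/+ lay below WT (log2 change -1.13, 2.19-fold, adjusted p = 0.000326), although these groups have the same genotype at Cbfb. The difference between the mutant effects was itself called (-0.68, adjusted p = 0.0418), but not with all genes tested or against arrays 3 and 4 alone.

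No other protease was called in either mutant by its brightest probe set. The level of Ctsb, the abundant cathepsin B, had means of 11.52 ± 0.16 (SD, n = 4) in Cbfb+/MYH11, 11.37 ± 0.33 (n = 4) in WT, 11.75 ± 0.02 (n = 3) in Cbfb-/- and 11.97 ± 0.04 (n = 3) in Cbfb+/+. Neither mutant was called, and another Ctsb probe set, at the edge of detection, gave -1.30 in Cbfb-/-. Ctsl, cathepsin L, was 7.18, 7.04, 8.24 and 8.31 in Cbfb+/MYH11, against 8.13, 8.55, 8.20 and 8.15 in WT. Only the first 2 Cbfb+/MYH11 arrays were low, and the change of -0.56 was not called (adjusted p = 0.0638), while with quantile normalization it was (-0.95). Ctsz, the carboxypeptidase cathepsin Z, had a change of 0.53 in Cbfb+/MYH11 (adjusted p = 0.0140) and of 0.38 in Cbfb-/- (adjusted p = 0.116). The first is under the 1.5-fold floor. A dimmer Ctsz probe set gave 0.59 in Cbfb-/-, past the floor (limma adjusted p over probe sets = 0.0158), and the dimmest gave 0.12.

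For the aspartic protease Ctsd, the tripeptidyl peptidase Tpp1 and the serine carboxypeptidase Ctsa, all 3 Cbfb-/- arrays lay below all 3 Cbfb+/+ arrays. Ctsd had a change of -0.47 (adjusted p = 0.00632), with 10.01, 10.01 and 10.02 in Cbfb-/- against 10.52, 10.47 and 10.46. Tpp1 had -0.47 (adjusted p = 0.00283) and Ctsa -0.44 (adjusted p = 0.0754). All are under the 1.5-fold floor, and all were called with quantile normalization (-0.61, -0.65 and -0.66). In Cbfb+/MYH11 the same genes had changes of -0.23, -0.12 and -0.13. Ctsh, an aminopeptidase, reached 6 on 1 array only, WT array 2 (6.39), and lay at 4.25, 4.28, 4.52 and 4.56 in Cbfb+/MYH11, so it was not tested.

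**Figure D2:**
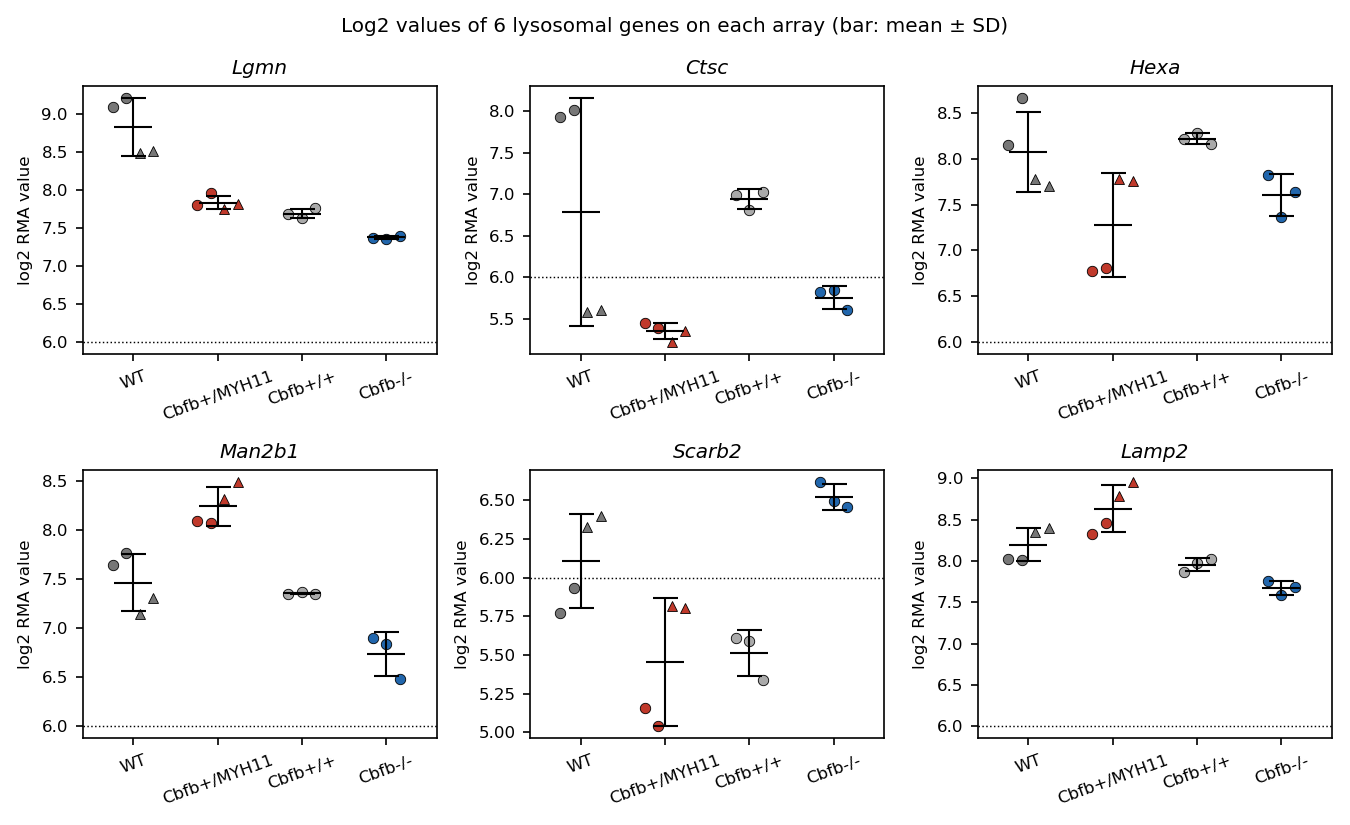
Log2 values of Lgmn, Ctsc, Hexa, Man2b1, Scarb2 and Lamp2 on each array (vertical axis) by group, with the mean and SD as bars; in the first cross circles are arrays 1 and 2 and triangles arrays 3 and 4, and the dotted line at 6 is the filter level. The WT arrays of Ctsc split into circles near 8 and triangles under 6, and Man2b1 and Scarb2 move in opposite directions in the 2 mutants.

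Of the glycosidases only Hexa, Gaa and Man2b1 were bright enough to be tested. Hexa encodes the alpha subunit of beta-hexosaminidase, which degrades the ganglioside GM2. Its values were 6.77, 6.80, 7.78 and 7.76 in Cbfb+/MYH11, against 8.15, 8.66, 7.78 and 7.70 in WT. The first 2 Cbfb+/MYH11 arrays were low, while arrays 3 and 4 had the level of WT arrays 3 and 4. Hexa fell by 0.79 over the 4 arrays (1.73-fold, limma adjusted p = 0.0182), but the change was -1.62 within arrays 1 and 2 and 0.03 within arrays 3 and 4. With the array number as a block the call was lost (adjusted p = 0.0505), as it was without Cbfb+/MYH11 array 1 (0.0561), Cbfb+/MYH11 array 2 (0.0576) or WT array 2 (0.0590). In Cbfb-/- it was 7.83, 7.37 and 7.63 against 8.22, 8.28 and 8.16 in Cbfb+/+. Those groups did not overlap, and the change of -0.61 was not called (adjusted p = 0.114). It was called with quantile normalization (-0.81) and with only the arrays of the second cross fitted.

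Man2b1, the alpha-mannosidase that trims N-linked glycans, was called in opposite directions in the mutants. It measured 8.09, 8.07, 8.32 and 8.49 in Cbfb+/MYH11, against 7.64, 7.77, 7.14 and 7.30 in WT. It measured 6.90, 6.83 and 6.48 in Cbfb-/- and 7.35, 7.36 and 7.35 in Cbfb+/+. Every Cbfb+/MYH11 array was above every WT array, every Cbfb-/- array was below every Cbfb+/+ array, and the wild-type groups lay together. Man2b1 rose by 0.78 in Cbfb+/MYH11 (1.71-fold, limma adjusted p = 0.000649) and fell by 0.61 in Cbfb-/- (1.53-fold, adjusted p = 0.0134). The difference of the effects was 1.39 (adjusted p = 0.000621). Relative to the median of all genes the changes were 0.52 and -0.75. The rise was not called with quantile normalization (0.39, adjusted p = 0.0744), and the fall was not called with the arrays centred on their medians (-0.56) or without Cbfb-/- array 3 (-0.49, adjusted p = 0.0581). Both calls were lost with the mean of probe sets. A second Man2b1 probe set, with a mean level of 5.48 that is under the filter level, gave 0.22 and -0.41.

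Gaa, acid alpha-glucosidase, which degrades glycogen, was 7.84, 7.58, 8.04 and 8.05 in Cbfb+/MYH11, against 8.11, 8.18, 8.14 and 8.22 in WT. The groups did not overlap, but the change of -0.28 (adjusted p = 0.0473) is under the fold floor, as is -0.27 in Cbfb-/- (adjusted p = 0.114). Glb1 and Gusb, the beta-galactosidase and beta-glucuronidase often used as lysosomal markers, reached 6 on 2 arrays each, and their differences in either mutant were between -0.21 and 0.10. Galc, Naglu and Neu1 were under 6 on all 14 arrays.

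Of the 4 tested genes for lipid handling limma called 0 in either mutant by the brightest probe sets. With these, 2, Npc2 and Lipa, had an unadjusted p under 0.05 in Cbfb+/MYH11 and 0 had one in Cbfb-/-. Npc2, the soluble protein that hands cholesterol to Npc1 in the membrane, was 9.09, 9.12, 9.89 and 9.95 in Cbfb+/MYH11, against 8.58, 8.89, 9.24 and 9.14 in WT. Each Cbfb+/MYH11 array was above the WT array of the same number, and the change of 0.55 (adjusted p = 0.0301) is just under the 1.5-fold floor. In Cbfb-/- it was 0.11. A second Npc2 probe set gave 0.60 in Cbfb+/MYH11, past the floor (limma adjusted p over probe sets = 0.00356). Lipa, the acid lipase that frees cholesterol from its esters, was 5.43, 5.49, 5.68 and 5.79 in Cbfb+/MYH11, against 5.91, 6.04, 5.91 and 5.85 in WT. These groups did not overlap (-0.33, adjusted p = 0.00652), but all values lie at the edge of detection, and Lipa passed the filter only through 1 WT array and the 6 arrays of the second cross. A second Lipa probe set, with a mean level of 5.52, gave -0.90 in Cbfb+/MYH11, past the floor (limma adjusted p over probe sets = 0.000304).

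The sphingolipid genes Psap and Asah1 were not called. Psap, the precursor of the saposins, had changes of 0.11 and -0.02 with SDs between 0.05 and 0.17 in the groups. Asah1, acid ceramidase, had 0.01 and -0.09, where the 0.01 averages -0.31 within arrays 1 and 2 and 0.32 within arrays 3 and 4. Ppt1, which removes palmitate from proteins, and Gm2a, the GM2 activator, reached 6 on 2 arrays and 1 array. Npc1 was under 6 on all arrays.

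The membrane proteins went apart. Scarb2, also called LIMP2, is the receptor that brings beta-glucocerebrosidase to lysosomes. It was 5.16, 5.04, 5.81 and 5.80 in Cbfb+/MYH11, against 5.77, 5.93, 6.33 and 6.40 in WT, and 6.62, 6.50 and 6.45 in Cbfb-/- against 5.61, 5.59 and 5.34 in Cbfb+/+. All Cbfb-/- arrays were above their littermates, while in the first cross each Cbfb+/MYH11 array was below the WT array of its number but the groups overlapped. Scarb2 fell by 0.65 in Cbfb+/MYH11 (1.57-fold, limma adjusted p = 0.00980) and rose by 1.01 in Cbfb-/- (2.01-fold, adjusted p = 0.00421). The difference of the effects was -1.66 (adjusted p = 0.00109). It passed the filter only through 2 WT and 3 Cbfb-/- arrays, so both folds are against values near background. The fall dropped under the fold floor without Cbfb+/MYH11 array 1 or 2 or WT array 3 or 4 (log2 changes from -0.58 to -0.52), and with centred arrays (-0.54).

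Lamp1 and Lamp2, the main glycoproteins of the lysosomal membrane, were higher in Cbfb+/MYH11 by amounts under the fold floor. Lamp1 was 10.33, 10.26, 10.56 and 10.63 in Cbfb+/MYH11, against 10.01, 10.06, 9.99 and 9.96 in WT. All Cbfb+/MYH11 arrays were above all WT arrays, with a change of 0.44 (1.35-fold, limma adjusted p = 0.000919), which with quantile normalization was 0.18 (adjusted p = 0.0696). In Cbfb-/- the change was -0.12. Lamp2 had 0.43 in Cbfb+/MYH11 (adjusted p = 0.0150) and -0.28 in Cbfb-/- (adjusted p = 0.159), and the difference between these effects was called (0.72, adjusted p = 0.0238). That call was lost with quantile normalization (0.53, under the fold floor) and with the Lamp2 probe set of highest variance. Its other probe sets above the filter gave 0.00 and 0.69 in Cbfb+/MYH11, and with quantile normalization the change was 0.03.

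Laptm4a and Laptm4b, small transmembrane proteins of late endosomes, differed from each other in spread. Laptm4a stayed between 9.76 and 10.25 on all arrays, with changes of -0.19 and 0.03. Laptm4b was 7.12, 7.04, 7.78 and 7.87 in Cbfb+/MYH11, against 6.53, 6.44, 8.12 and 8.09 in WT, so that the WT arrays lay on both sides of the mutant. In Cbfb-/- it was 8.26, 8.23 and 8.16 against 7.31, 6.96 and 7.30, without overlap, and the change of 1.03 missed the threshold (adjusted p = 0.0624). A second probe set gave 1.21, past the floor (limma adjusted p over probe sets = 0.00609). The first probe set was called with only the arrays of the second cross fitted. Mcoln1, a calcium channel of the lysosome, was under 6 on all arrays.

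Counted by overlap alone, 2 of the 20 tested genes had all Cbfb+/MYH11 arrays above all WT arrays (Man2b1 and Lamp1), against 39.5% of all genes, and 4 had all below (Ctsc, Lgmn, Gaa and Lipa), against 13.6%. In the second cross 3 lay wholly above (Ctsz, Scarb2 and Laptm4b), against 44.3%, and 10 wholly below, against 25% of all genes.

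The effects of the mutants differed for 4 of the 20 genes, against 20.9% of all genes (14.9% higher and 6.07% lower in Cbfb+/MYH11). Man2b1 (1.39) and Lamp2 (0.72) were higher in Cbfb+/MYH11 than in Cbfb-/-, each relative to littermates, and Scarb2 (-1.66) and Lgmn (-0.68) were lower. For Lgmn the wild-type levels also differed. Between the wild-type groups 3 of the 20 were called, against 11.2% of all genes (5.48% higher and 5.76% lower in Cbfb+/+). Ctsb was 0.60 higher in Cbfb+/+ than in WT (adjusted p = 0.0104), and Lgmn (-1.13) and Scarb2 (-0.59, adjusted p = 0.0497) were lower. The Scarb2 call was lost with centred arrays, with all genes tested, with an intensity trend in the fit, with either other probe set rule and with only these arrays compared. The Ctsb call was lost with quantile normalization, with either other probe set rule and with only these arrays compared, while Lgmn was called under all of these. By overlap alone, Ctsb, Ctsl, Gaa and Lipa lay wholly higher in Cbfb+/+, as did 18.7% of all genes, and Lgmn, Psap and Scarb2 wholly lower, as did 15.4%.

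The changes in Cbfb+/MYH11 depended on the array pair. Within arrays 1 and 2, 6 of the 20 genes fell (Ctsa, Ctsc, Ctsl, Lgmn, Hexa and Scarb2), against 7.63% of all genes, and 1 rose (Laptm4b), against 37% (44.6% in either direction). Within arrays 3 and 4, 4 rose (Ctsz, Man2b1, Npc2 and Lamp1), against 24.6%, and 1 fell (Lgmn), against 6.44% (31% in either direction). These values come from a separate limma fit with each pair of each genotype as a group. Ctsc fell by 2.56 within arrays 1 and 2 and had -0.31 within arrays 3 and 4. Ctsl had -1.23 and 0.10, and Ctsa had -0.59 and 0.34. Man2b1 had 0.38 in the first pair and 1.18 in the second, and Ctsz 0.13 and 0.93. Lgmn had -1.27 and -0.71. The change was called different between the pairs for 8 of the 20 genes, 7 of them less negative or more positive in arrays 3 and 4 (4.34% of all genes) and 1, Laptm4b, the other way (15.2%, and 19.6% in either direction).

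Part of this difference lay in the WT arrays. WT arrays 3 and 4 were lower than WT arrays 1 and 2 in Ctsc (-2.38), Hexa (-0.67) and Lgmn (-0.66), where 3.77% of all genes were lower, and higher in Laptm4b (1.62), where 24.4% were (28.1% in either direction). In Cbfb+/MYH11, 6 of the 20 were higher in arrays 3 and 4 than in arrays 1 and 2 and 0 were lower, against 7.78% and 1.2% of all genes (8.98% together). Whether the pairs are separate RNA pools, extractions or scans is not given in the sources used here.

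**Figure D3:**
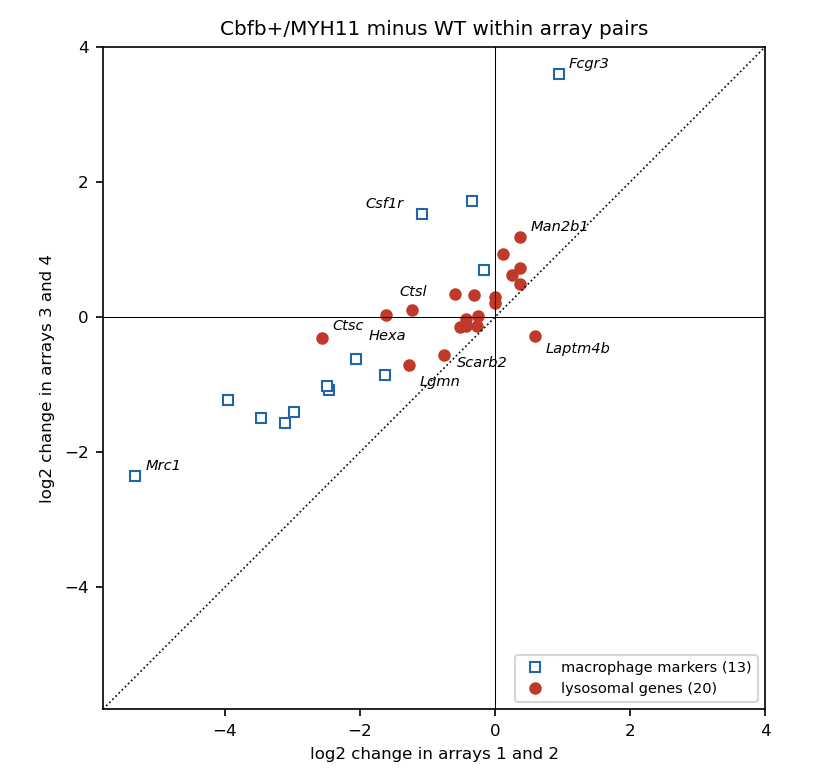
Log2 change in Cbfb+/MYH11 minus WT within arrays 1 and 2 (horizontal) against that within arrays 3 and 4 (vertical) for the 20 tested lysosomal genes (filled) and the 13 tested macrophage markers (open squares); the dotted line marks equal changes. Every point but that of Laptm4b lies above the line, and Ctsc, Hexa and Ctsl lie far left of 0 but near 0 on the vertical axis.

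Many macrophage transcripts fell in both mutants, and their levels differed between the WT array pairs too. Of 23 macrophage markers listed 13 were tested. All 13 reached 6 on some array of each wild-type group, but only 4 did so in Cbfb+/MYH11 and 2 in Cbfb-/-, so most passed the filter through the arrays where they are high. Over all 23 the median difference was -1.03 in Cbfb+/MYH11 and -1.27 in Cbfb-/-. In Cbfb+/MYH11 9 of the 13 fell and 1 rose, against 5.63% and 30.5% of all genes, with a median change of -1.75. The mannose receptor Mrc1 fell by 3.84 and the signalling adaptor Tyrobp had a change of -2.34, while the immunoglobulin receptor Fcgr3, which mast cells also carry, rose by 2.27. In Cbfb-/- the 13 tested fell, against 6.65% of all genes, with a median of -1.95. Among them was Csf1r, the receptor for the macrophage growth factor (-2.39). In Cbfb+/MYH11 Csf1r had 0.23 and was not called. In blood, fewer macrophages and less of these RNAs per macrophage cannot be told apart.

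The summed level of the 23 markers (log2 of the sum of their linear values) was at or above 11.78 on WT arrays 1 and 2, 10.08 to 10.11 on WT arrays 3 and 4 and 10.45 to 10.86 in Cbfb+/MYH11. In the second cross it was 11.27 to 11.29 in Cbfb+/+ and 9.50 to 9.58 in Cbfb-/-. Aif1, Cd163, Cx3cr1, Cybb, Fcgr1 and Timd4 were under 6 on every array. All 13 tested markers were lower in WT arrays 3 and 4 than in WT arrays 1 and 2, with a median of -1.64. Of all genes 3.77% were lower there. Of the 23 markers 16 and 17 reached 6 on WT arrays 1 and 2, but 5 and 6 did on WT arrays 3 and 4. The markers were thus tested partly through WT arrays 1 and 2, so this direction was partly set by the filter. Ctsc, Hexa and Lgmn were lower on WT arrays 3 and 4 too. Within arrays 1 and 2 the markers had a median of -2.46 in Cbfb+/MYH11, and within arrays 3 and 4 of -1.02. Within arrays 3 and 4, 9 fell and 4 rose, against 6.44% and 24.6% of all genes. The median of the 20 lysosomal genes in the same pairs was -0.29 and 0.07, against 0.31 and 0.20 for all genes. The platelet markers given next were lower on the same arrays. The part of macrophage content in these values was not tested.

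Other cell types moved with the groups as well. Of 10 tested platelet markers 7 fell in Cbfb+/MYH11 (median -1.76) and 10 in Cbfb-/- (median -1.75). Of all genes 5.63% and 6.65% fell. All 10 markers were lower in WT arrays 3 and 4 than in WT arrays 1 and 2 (median -1.63), as were 3.77% of all genes. All 10 reached 6 on some array of each wild-type group, but only 5 did so in Cbfb+/MYH11 and 6 in Cbfb-/-. The markers were thus tested partly through arrays where they are high, so the direction of their falls was partly set by the filter. The summed level of the 11 platelet markers with a probe set was 12.22 to 12.44 on WT arrays 1 and 2, 10.92 to 10.95 on WT arrays 3 and 4 and 10.75 to 11.12 in Cbfb+/MYH11. It was 11.89 to 11.94 in Cbfb+/+ and 10.05 to 10.12 in Cbfb-/-. The summed level of 12 mast cell and basophil markers was 10.25 to 10.90 in Cbfb+/MYH11 and 7.96 to 8.36 in WT, with 0 of the 12 at or above 6 in WT and 5 to 6 in Cbfb+/MYH11. The 5 that were tested passed the filter only through Cbfb+/MYH11, so their rise was fixed by the filter. The summed level of 11 visceral endoderm and liver genes was 12.37 to 12.40 in WT arrays 1 and 2 and at or below 9.07 in WT arrays 3 and 4, against 8.77 to 10.17 in Cbfb+/MYH11. It was 12.27 to 12.39 in Cbfb-/- and 11.02 to 11.05 in Cbfb+/+. Neural genes were at 11.61 to 11.74 in Cbfb-/- and at 8.56 to 8.71 in Cbfb+/+. Their part in the changes of the lysosomal genes was not tested.

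**Figure D4:**
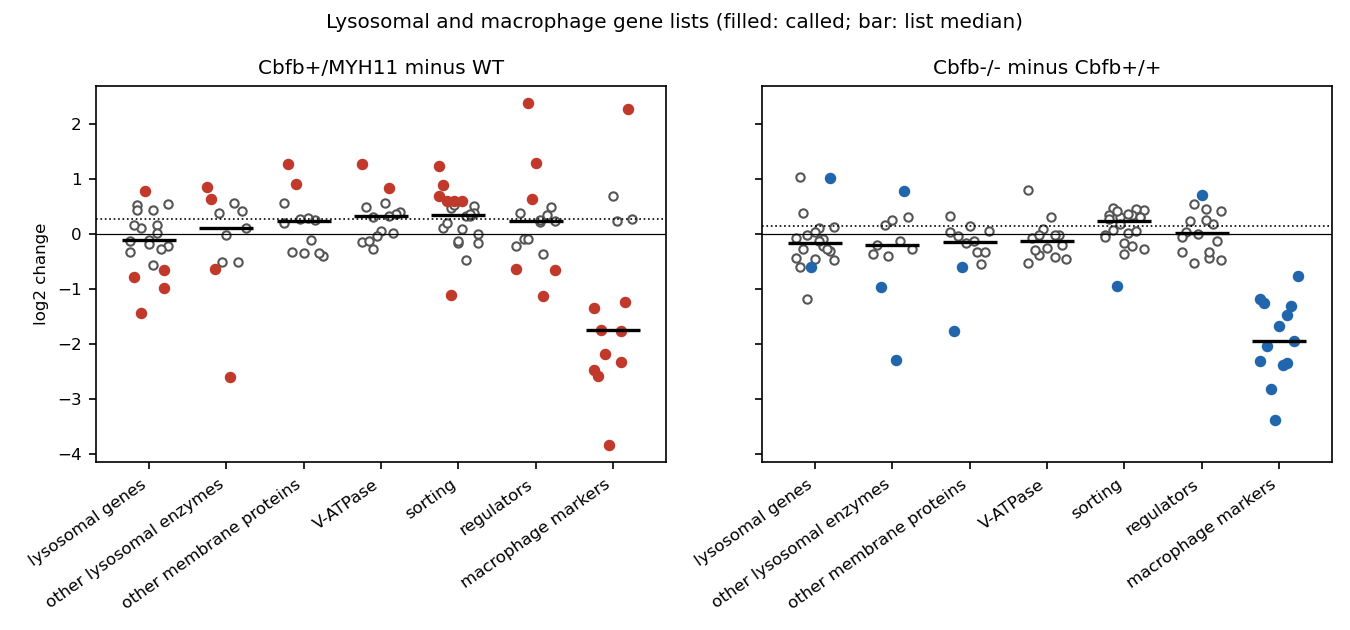
Log2 changes of the tested genes of 7 lists (columns) in Cbfb+/MYH11 minus WT (left) and Cbfb-/- minus Cbfb+/+ (right); filled points were called, bars mark each list's median and the dotted line the median of all tested genes. Of the lists plotted, the macrophage markers have medians of -1.75 and -1.95, and the lysosomal lists lie around 0.

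In the other lysosomal lists together, 15 of 75 tested genes (20%) rose and 6 (8%) fell in Cbfb+/MYH11, against 30.5% and 5.63% of all genes, and 2 (2.67%) rose and 5 (6.67%) fell in Cbfb-/-, against 19.5% and 6.65%. The shares that fell lie near those of all genes in both mutants, and the shares that rose lie below them. Among the other lysosomal enzymes a pair of cathepsins fell in both mutants by the brightest probe sets. Of 11 tested, 2 rose and 2 fell in Cbfb+/MYH11, and 1 rose and 2 fell in Cbfb-/-. Ctss, cathepsin S of antigen-presenting cells, fell by 2.60 in Cbfb+/MYH11 (6.05-fold, limma adjusted p = 3.57e-05) and by 2.30 in Cbfb-/- (4.92-fold, adjusted p = 0.000981). Its mean was 6.57 over all arrays and under 6 in Cbfb+/MYH11, near background, so the size of that fold is not well measured. Ctse, the aspartic protease cathepsin E, fell by 0.65 and 0.96. A second, dimmer Ctse probe set, with a mean level of 6.73, gave -0.46 and -0.08, both under the fold floor. The iduronate sulfatase gene Ids (0.86) and Prcp (0.63), a prolyl carboxypeptidase, rose in Cbfb+/MYH11, and Scpep1, a serine carboxypeptidase, rose in Cbfb-/- (0.77). The list median was 0.11 in Cbfb+/MYH11 and -0.21 in Cbfb-/-, and -0.10 and -0.33 with quantile normalization, where Prcp was not called (0.39).

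Among 12 other membrane proteins Ostm1 and Laptm5 were called in opposite directions in the mutants. Ostm1, a partner of the lysosomal chloride transporter, rose by 0.91 in Cbfb+/MYH11 (adjusted p = 6.65e-05, limma) and fell by 0.60 in Cbfb-/- (adjusted p = 0.00771). With quantile normalization the rise was 0.56 and not called. Laptm5, a membrane protein of blood cells, rose by 1.27 and fell by 1.77, but its other probe sets gave -0.99, 0.26 and 0.81 in Cbfb+/MYH11, so its direction there depends on the probe set. The median of the 12 was 0.23 in Cbfb+/MYH11 and -0.14 with quantile normalization, and in Cbfb-/- it was -0.15 and -0.32.

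Of 14 tested subunits of the vacuolar proton pump, 2 rose in Cbfb+/MYH11, Atp6v1h (1.26) and Atp6v0b (0.83), and 0 fell. Of all genes 30.5% rose and 5.63% fell. In Cbfb-/- limma called 0 of the 14, against 26.2% of all genes, with 5 lower at an unadjusted p under 0.05. With quantile normalization 3 fell there, against 12.2% of all genes. The other Atp6v0b probe sets gave 0.95 and 0.08 in Cbfb+/MYH11. Atp6v1h had a mean of 5.75 over all arrays, under the filter level, so part of its values lie near background. Atp6v0b was not called in Cbfb+/MYH11 with quantile normalization (0.52). The median of the 14 was 0.32 in Cbfb+/MYH11, or -0.05 with quantile normalization, and -0.14 in Cbfb-/-.

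Of 22 tested genes for sorting to lysosomes, 6 rose and 1 fell in Cbfb+/MYH11, a share of rises no higher than the 30.5% of all genes. M6pr, the cation-dependent mannose 6-phosphate receptor, rose by 1.24 (2.36-fold, limma adjusted p = 4.05e-07), and its second probe set gave 1.10. The others that rose were Vps16 (0.89), of the complex that tethers vesicles to lysosomes, the adaptor subunits Ap3b1 (0.68) and Ap1s1 (0.60), the retromer subunit Vps35 (0.59) and the adaptor Gga2 (0.59). With quantile normalization M6pr (0.87) and Vps16 (0.63) were called, and the other 4 were not. Nagpa, which uncovers the mannose 6-phosphate tag, fell by 1.12 in Cbfb+/MYH11 and by 0.95 in Cbfb-/-, though its second probe set gave -0.26 and -0.02. Igf2r, the other receptor for the tag, had -0.48 and -0.23 and was not called.

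Of 16 tested regulators of lysosome formation and of nutrient sensing at its membrane, 3 rose and 3 fell in Cbfb+/MYH11, and 1 rose in Cbfb-/-. Of all genes 30.5% rose and 5.63% fell in Cbfb+/MYH11, and 19.5% rose in Cbfb-/-. Mitf is a transcription factor of the TFEB family that is also known for its role in mast cells. It rose by 2.37 (5.19-fold, limma adjusted p = 3.79e-06), from a WT mean of 4.35 that is under the filter level. Its mean over all arrays was 4.83, also under that level, so Mitf passed the filter mainly through Cbfb+/MYH11. The direction of this rise was therefore largely set by the filter, and the fold is against values near background. Tfe3, a relative of Mitf, fell by 1.13 (adjusted p = 8.45e-06), and Tfeb itself had -0.23. Lamtor2, a subunit of the Ragulator complex, rose by 1.29 in Cbfb+/MYH11 and by 0.70 in Cbfb-/-, and Lamtor5 rose by 0.63 in Cbfb+/MYH11. Flcn (fell by 0.67), the folliculin gene, and Rraga (fell by 0.64), a Rag GTPase, were called in Cbfb+/MYH11. With quantile normalization Lamtor5 in Cbfb+/MYH11 and Lamtor2 in Cbfb-/- were not called, and with centred arrays Flcn and Rraga were not.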

How the data were processed

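Total RNA of pooled embryonic blood was labelled with biotin and hybridised to Affymetrix mouse arrays, 1 array per sample, per the labels' protocols. The authors deposited 1 log2 value per probe set and array, made by RMA with Affymetrix Expression Console per the submitters' processing notes; versions are not given in the sources used here. RMA subtracts background and normalizes between arrays, so a general shift in RNA is partly removed.

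Symbols came from the platform annotation: 34958 of the 45101 probe sets carried 1 symbol. The 14 arrays were fitted in 1 model of 4 groups with limma 3.58.1 in R 4.3.3, and p-values were adjusted by the Benjamini-Hochberg method over the 7393 genes tested. The fit was tested on simulated data. All 31 genes are accounted for, and of each other list up to 4 genes with the smallest adjusted p in a mutant comparison were to be named. Prcp, Atp6v1h, Igf2r, Gga2, Ap1s1, Vps35, Tfeb, Lamtor5, Rraga, Csf1r, Fuca1, Zkscan3 and the macrophage genes under 6 on all arrays fall outside that rule and were chosen after their values were seen. The members and the lists were chosen with earlier results of these data known. Alternatives were quantile normalization, median centring, other filters and probe set rules, fits to the arrays compared alone, array pairs, the replicate block, and leaving out each array.

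In the first cross, same-numbered arrays of Cbfb+/MYH11 and WT deviated together from their group means (correlations 0.521, 0.407, 0.499 and 0.499). Arrays of different number within arrays 1 and 2 or within arrays 3 and 4 did so as much (0.417 to 0.514), so the numbers mark these pairs of arrays rather than single matches, and the block by number was used as an alternative. The precision is limited by the number of arrays.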

Additional observations from a re-analysis of the deposited data

Results flagged for a closer look

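The change of 8 lysosomal genes in Cbfb+/MYH11 differed between the array pairs of the first cross, by the limma test of the difference itself (change within arrays 3 and 4 minus change within arrays 1 and 2, log2). It was 2.25 for Ctsc, 1.65 for Hexa, 1.33 for Ctsl, 0.93 for Ctsa, 0.81 for Man2b1, 0.80 for Ctsz and 0.63 for Asah1. It was -0.88 for Laptm4b.

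The changes in the 2 mutants differed for 4 genes by the test of that difference (change in Cbfb+/MYH11 minus change in Cbfb-/-, log2). It was 1.39 for Man2b1, 0.72 for Lamp2, -0.68 for Lgmn and -1.66 for Scarb2. The 2 crosses did not share control arrays. No array of a gene stood apart from the others of its group of 4 by Dixon's test. That test looks for 1 array apart, so it cannot flag groups that split into pairs, such as Ctsc in WT.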

How the results depend on the processing

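Of 746 gene values recomputed under the alternatives, 652 kept their direction and side of the threshold, 28 lost and 39 gained the call, 26 turned sign while called in neither, and 1 reversed: Hexa in Cbfb+/MYH11, 0.031 within arrays 3 and 4. Genes called in Cbfb+/MYH11 went from 2671 to 1701 with the mean of probe sets, 18 with arrays 1 and 2 and arrays 3 and 4 averaged as 1 sample each, and 4622 with no fold floor. In Cbfb-/- 1935 became 3218 with no fold floor. Averaging left 0 members called higher or lower in Cbfb+/MYH11. In the second cross the same setting averaged the 3 arrays of each group as 1 sample, so calls that involve that cross cannot be read there. Members higher in Cbfb+/MYH11 (1) were 0 with quantile normalization or the mean of probe sets, 3 with centring, 2 with no filter, 4 within arrays 3 and 4 and 5 with no fold floor. Members lower (4) were 2 with the mean of probe sets or only the arrays compared and 1 within arrays 3 and 4. In Cbfb-/- members higher (1) were 0 with the filter at 7 and 2 with the probe set of highest variance or only the arrays compared. Members lower (1) were 5 with quantile normalization, 0 with centring or the mean of probe sets, 2 with the highest variance, 3 with only the arrays compared and 3 with no fold floor. Between wild types, members called (3) were 1 with the mean of probe sets or only the arrays compared and 5 against WT arrays 3 and 4 (26.6% of all genes) or with no fold floor. Members with different effects (4) were 7 against arrays 1 and 2 and 9 against arrays 3 and 4, where 32.8% and 32.2% of all genes were called. Leaving out 1 array gave 2258 to 3014 genes called in Cbfb+/MYH11, with 1 to 3 members higher and 2 to 5 lower, and 1550 to 1698 in Cbfb-/-, with 1 higher and 0 to 1 lower. It gave 1 to 3 members between wild types and 2 to 5 with different effects. Causes were not tested.

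With the replicate number as a block, 2753 genes were called in Cbfb+/MYH11, with 1 member higher and 3 lower, and 2127 in Cbfb-/-, with 2 higher and 1 lower, Laptm4b being added (adjusted p = 0.00463). In the second cross same-numbered arrays correlated by 0.034, 0.011 and 0.017 and share only a number. Values under about 6 may be background, which limits Ctsc, Scarb2, Lipa and the 10 members not tested.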

Other observations

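Of the 75 tested genes of the other lysosomal lists, 8 (10.7%) were called between the wild-type littermates of the crosses, which have the same Cbfb genotype, a share near the 11.2% of all genes. Relative to WT, Cbfb+/+ blood had more Nagpa (log2 change 1.93, from 6.98 to 8.91), Ctss (1.47), Fuca1 (0.71), a fucosidase, and the proton pump genes Atp6v0a1 (0.66) and Atp6v0b (0.59), and less Igf2r (-1.38), Zkscan3 (-0.62) and Flcn (-0.59). Of the 13 tested macrophage markers 0 were called between these groups by limma (2 had an unadjusted p under 0.05), with a median of 0.39.

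Of the 10 lysosomal genes too dim to be tested, Ctsh, Npc1 and Mcoln1 had groups that did not overlap in at least 1 cross. Of the tested genes 39.5% lay wholly above and 13.6% wholly below in Cbfb+/MYH11, and 44.3% and 25% in Cbfb-/-. The share among all dim genes was not counted, so no excess is read from these genes. Ctsh lay at 4.25 to 4.56 in Cbfb+/MYH11 and at 5.07 to 6.39 in WT. Npc1 lay lower in Cbfb-/- than in Cbfb+/+, and Mcoln1, by its brightest probe set, higher in both mutants than in their littermates. The other Mcoln1 probe sets went the other way in Cbfb+/MYH11 and differed from each other in direction in Cbfb-/-. Nearly all values of these genes were under 6, so no size is given.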
